A study of Mus musculus with 4 samples.

Results

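Oligodendrocyte precursor cells (OPC) of the mouse hippocampus were described across 4 single-nucleus RNA libraries. Members were chosen by a rule on counted transcripts (unique molecular identifiers, UMIs). A nucleus with 500 genes or more and less than 5% mitochondrial UMIs was taken when at least 3 of Pdgfra, Cspg4, Vcan, C1ql1, Cacng4, Megf11, Emid1 and Shc4 had a UMI, with Pdgfra or Cspg4 among them. Enpp6, Bmp4 and Gpr17, which mark precursors committed to differentiation, had to hold at most 1 UMI together. Fewer than 2 of Mobp, Mog, Prr5l, Gja1, Inpp5d, Flt1 and Col1a2, which mark other glia, vessels and fibroblasts, could be detected, and the neuronal genes Gad1, Gad2 and Slc17a7 could hold at most 3 UMIs together. The rule found 1074 of 55295 filtered nuclei: 295 and 256 in replicates 1 and 2 of wild-type (WT) mice, and 305 and 218 in replicates 1 and 2 of knock-in (KI) mice. The KI mice were heterozygous for an amino acid change in Cyfip2, a subunit of the WAVE complex that drives actin branching, and modelled West syndrome, an infantile epilepsy. Per the study they were kept on a C57BL/6N background, and nuclei were taken from adult WT and KI littermates at the later of the ages at which seizures were filmed. Each mouse gave 1 library from the hippocampi of both hemispheres, with no pooling of animals. The treatment label of KI replicate 1 named the allele R87C, and that of KI replicate 2 read R88C, while its protocol read R87C. The edit was carried in the germ line, so every cell type of a KI mouse held it.

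OPC are the dividing glial progenitors that persist in the adult brain. They are held in the cycle by PDGF acting on the receptor Pdgfra, carry the proteoglycan Cspg4 (NG2), receive synapses from neurons through glutamate and GABA receptors, and give rise to myelinating oligodendrocytes. Notch and BMP signals hold them back from differentiation, with Hes5 as a Notch target, and Wnt ligands and Vegfa made by OPC act on nearby vessels.

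The genes of the rule are given as a description, since they chose the members. Pdgfra was detected in 88.1% and 92.6% of the WT members and in 89.5% and 87.2% of the KI members, and its level was 563 and 645 counts per 1000000 UMIs of the OPC of a library (CPM) in WT against 561 and 467 CPM in KI. Neurons held 3.34 to 5.45 CPM of it. Cspg4 was detected in 52.8% to 59.4% of the members of a library, Vcan in 81.3% to 89.2%, Cacng4 in 60.0% to 67.9% and C1ql1 in 15.4% to 25.4%. Megf11 was at 447 and 464 CPM in WT against 288 and 280 CPM in KI. Close to the limits, 72, 43, 62 and 56 members of WT replicates 1 and 2 and KI replicates 1 and 2 had exactly 3 genes of the rule, while 110, 98, 142 and 133 nuclei with exactly 2 stayed outside. A further 101, 62, 102 and 163 nuclei were kept out by genes of other glia or vessels, and 14, 13, 9 and 22 by neuronal genes.

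The 4 libraries held 73009975 to 80913580 UMIs, of which the OPC held 1018294 and 914740 in WT and 1133746 and 945110 in KI. Members had a median of 2515 to 2764.5 UMIs and 1433 to 1630.5 genes in a library, and ranged from 716 to 30349 UMIs. Libraries shared 39 to 66 cell barcodes in pairs. WT replicates differed from each other by a chi-square statistic per degree of freedom of 1.59 over the genes, and KI replicates by 2.97, and each library was counted as a sample of its own.

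Members with many UMIs stood apart in all libraries. Those above 4000 UMIs, a limit set after the values were seen, numbered 64 and 51 in WT and 63 and 72 in KI, or 33.0% of the members of KI replicate 2 against 19.9% to 21.7% in the other libraries. They held 65.1% of the OPC UMIs of KI replicate 2 and 43.8% to 49.5% elsewhere. In these nuclei OPC genes outside the rule were lower: Tnr was at 1371 to 1754 CPM, against 3224 to 3936 CPM in members of up to 4000 UMIs, and Lhfpl3 at 947 to 2532 CPM against 3376 to 5334 CPM. Transcripts of neurons were high instead. Syt1, a synaptic vesicle gene, was at 1891 to 2711 CPM in members above 4000 UMIs, at 510 to 598 CPM in the others and at 3140 to 3593 CPM in neurons. Rbfox3, which encodes the neuronal nuclear protein NeuN, was at 195 to 334 CPM above and 44 to 61 CPM up to the limit. Of 99 members with a doublet score above 0.25, 81 lay above 4000 UMIs. The summed level of 10 neuronal markers was 4344 and 3427 CPM in WT against 3923 and 4967 CPM in KI over all members, and 1815 to 2059 CPM in members of up to 4000 UMIs. Of the marker lists of other cell types, 0 genes passed in edgeR or DESeq2 over all members in KI against WT. In edgeR, 6 had an unadjusted p below 0.05, as did 1255 of 10273 genes in all. The summed level was 777 and 925 CPM in WT against 554 and 631 CPM in KI for astrocyte markers, 630 and 467 CPM in WT against 466 and 534 CPM in KI for markers of mature oligodendrocytes, and 248 to 322 CPM over the 4 libraries for those of microglia. Microglial markers in members of up to 4000 UMIs summed to 349 and 257 CPM in WT against 316 and 484 CPM in KI. Of 7 tested there, 0 had a log2 fold change below 0. The complement gene C1qc passed higher, beside 0.987% of all genes in these members. It was at 9.44 and 9.73 CPM in WT against 31.4 and 39.4 CPM in KI (log2 fold change 1.92, edgeR adjusted p 0.0369). All 4 astrocyte markers that were tested had both KI libraries below both WT libraries (31.6% of all genes did), with a median log2 fold change of -0.40, or -0.16 in members of up to 4000 UMIs. The part of these cell types in the results was not tested. Values for the 824 members of up to 4000 UMIs are therefore given beside many of the results.

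**Figure D1:**
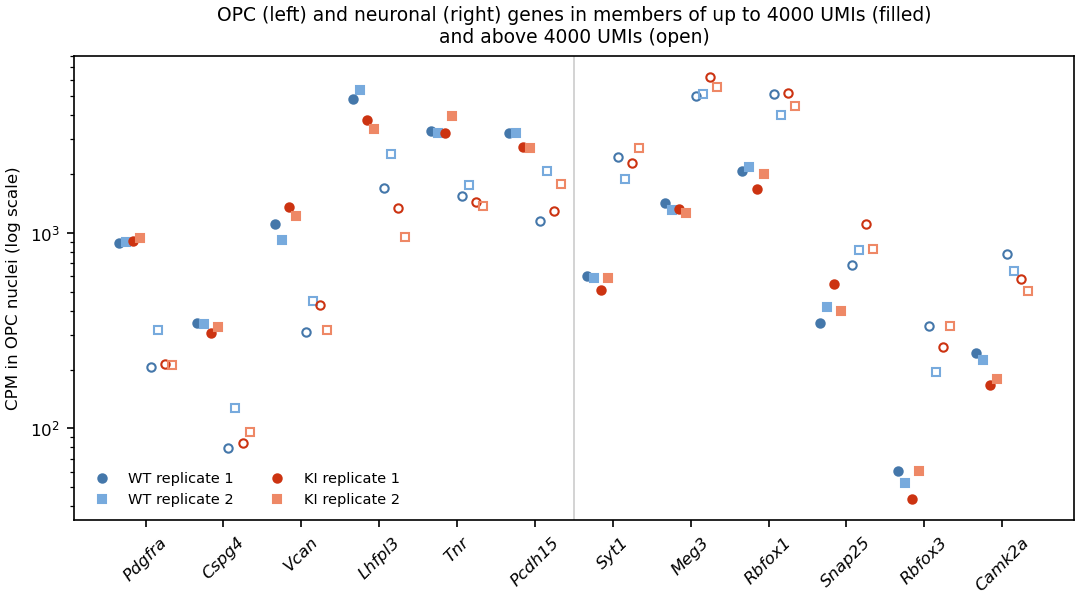
Level in CPM (log axis) of 6 OPC genes and 6 neuronal genes in OPC nuclei of up to 4000 UMIs (filled) and above 4000 UMIs (open), with 1 point per library. In every library the OPC genes were lower and the neuronal genes higher in the deep nuclei, as for Tnr (3224 to 3936 against 1371 to 1754 CPM) and Syt1 (510 to 598 against 1891 to 2711 CPM). Pdgfra, Cspg4 and Vcan are genes of the rule, so a shallow nucleus had to hold a high level of some of them to be a member.

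OPC made up 1.85% (exact 95% interval 1.64 to 2.07) and 1.94% (1.72 to 2.20) of the filtered nuclei in WT, and 2.43% (2.17 to 2.71) and 1.60% (1.40 to 1.83) in KI. Both the highest and the lowest share belonged to KI libraries. WT libraries had a mean of 1.90% ± 0.0700 (SD, n = 2) against 2.02% ± 0.584 (SD, n = 2) for KI libraries, and an exact two-sided permutation test gave p = 1, where 2 against 2 libraries allow no p below 0.33. The intervals cover counting error only. Nuclei with the same markers that held over 1 UMI of the genes of commitment numbered 11 and 15 in WT and 2 and 8 in KI.

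The OPC of KI mice differed from those of WT mice in a limited set of genes. The UMI sums of the libraries were compared in edgeR (quasi-likelihood F test, Benjamini-Hochberg adjustment). Of 10273 genes tested, 36 were higher in KI (0.35% of the genes) and 19 lower (0.185%) at an adjusted p below 0.05. None of the genes of the rule was among them. Without adjustment, 1255 genes had a p below 0.05. Scaling moved this split: library totals instead of TMM factors gave 22 higher and 38 lower genes, and shifted the median log2 fold change over all genes from 0.00 to -0.13. In nuclei of up to 4000 UMIs, 80 of 8103 genes were higher (0.987%) and 41 lower (0.506%). There, 28 of the 55 genes also passed in the same direction, 14 higher and 14 lower. With nuclei above a doublet score of 0.25 left out, only Hif3a and 6530403H02Rik passed. The noncoding RNA 6530403H02Rik had 77.6 and 83.1 CPM in WT against 177 and 245 CPM in KI (log2 fold change 1.52, adjusted p 0.00183), but 0.93 in members of up to 4000 UMIs, where it did not pass (adjusted p 0.245). Each p-value rests on the spread between 2 mice per genotype.

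Hif3a was higher in KI OPC in every alternative (ENSMUSG00000004328; chromosome 7, 17031507 to 17062427, minus strand, in GRCm38). It encodes a hypoxia-inducible factor subunit with forms that restrain the other subunits and which is induced by hypoxia and by glucocorticoids. It had 10 and 14 UMIs in the WT libraries and 109 and 69 UMIs in the KI libraries. These counts came to 9.82 and 15.3 CPM in WT against 96.1 and 73.0 CPM in KI, so that the lower KI library lay well above the higher WT library. The difference was 7.42-fold, or 2.89 on the log2 scale (SE 0.31, adjusted p 0.000156). The transcript was spread over many nuclei: 10 of 295 (3.39%) and 10 of 256 (3.91%) WT members had a UMI, against 90 of 305 (29.5%) and 50 of 218 (22.9%) KI members. With each nucleus thinned to 1000 UMIs, which left out 1 to 3 nuclei per library, the shares were 1.37% and 0.787% in WT and 12.5% and 10.6% in KI. Neurons, which hold little Hif3a, had a UMI in 2.19% to 5.73% of nuclei at a median of 8124 to 9482.5 UMIs, and in 0.162% to 0.387% after thinning. In UMIs per nucleus, OPC held 1.42 and 2.23 times the Hif3a of neurons in WT and 7.86 and 4.78 times in KI. In members of up to 4000 UMIs, Hif3a was at 13.2 and 11.7 CPM in WT against 143 and 139 CPM in KI, which is 3.58 on the log2 scale (adjusted p 1.81e-10). It was the single gene of the 55 that passed under all 14 alternatives, with a log2 fold change of 2.59 to 3.58 and an adjusted p of up to 0.0133.

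The promoter window of Hif3a is shown because hypoxia-inducible factors bind the core motifs ACGTG and GCGTG. It covers chr7:17062493-17062677 on the minus strand (RefSeq, GRCm38.p6), from 250 to 66 bases before the start of the gene, and capitals mark GCGTG on either strand.
Hif3a: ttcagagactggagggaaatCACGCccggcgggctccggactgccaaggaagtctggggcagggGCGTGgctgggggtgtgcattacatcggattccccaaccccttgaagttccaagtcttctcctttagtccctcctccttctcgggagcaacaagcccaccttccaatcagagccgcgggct
GCGTG had 2 matches, and ACGTG had 0. Windows of the same length held GCGTG in 20.6% of 32851 promoters and ACGTG in 11.7%, so a match to so short a motif is common. The glucocorticoid response element, searched on both strands, was in 0.314% of all windows and in 0 of the 28 promoters of genes higher in KI and 0 of the 15 of genes lower in KI, which says only that these letters are not in the windows.

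Of 26 hypoxia-inducible factors and their targets tested, 1 passed higher (Hif3a, beside 0.35% of all genes) and 1 lower (Vegfa, beside 0.185%), with a median log2 fold change of -0.03 against 0.00 for all genes. Without adjustment, 6 of the 26 had a p below 0.05, against 1255 of 10273 genes in all. Hif1a, the oxygen-regulated subunit itself, had 60.9 and 70.0 CPM in WT against 63.5 and 59.3 CPM in KI. P4ha1, a collagen prolyl hydroxylase induced by hypoxia, had a log2 fold change of -0.69 and an adjusted p of 0.136. Among 16 glucocorticoid receptors and response genes, Hif3a alone passed, and 8 had an unadjusted p below 0.05, against 1255 of 10273 genes in all. In members of up to 4000 UMIs, where 0.987% of all genes were higher, 4 of 14 passed, all higher: Hif3a, Zbtb16, Sgk1 and Fkbp5. Fkbp5, a chaperone of the glucocorticoid receptor and a standard readout of its activity, was there at 90.6 and 89.5 CPM in WT against 175 and 342 CPM in KI (log2 fold change 1.55, adjusted p 3.17e-05). Sgk1, a kinase induced by glucocorticoids, had a log2 fold change of 0.88 and an adjusted p of 0.00390 there. Zbtb16 was at 145 and 99.2 CPM in WT against 126 and 369 CPM in KI, so its groups overlapped and KI replicate 2 alone was high. Over all members, Fkbp5 had a log2 fold change of 0.95 and an adjusted p of 0.0676, and Sgk1 one of 0.57 and 0.170. The receptor genes Nr3c1 and Nr3c2 were not among the genes that passed.

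**Figure D2:**
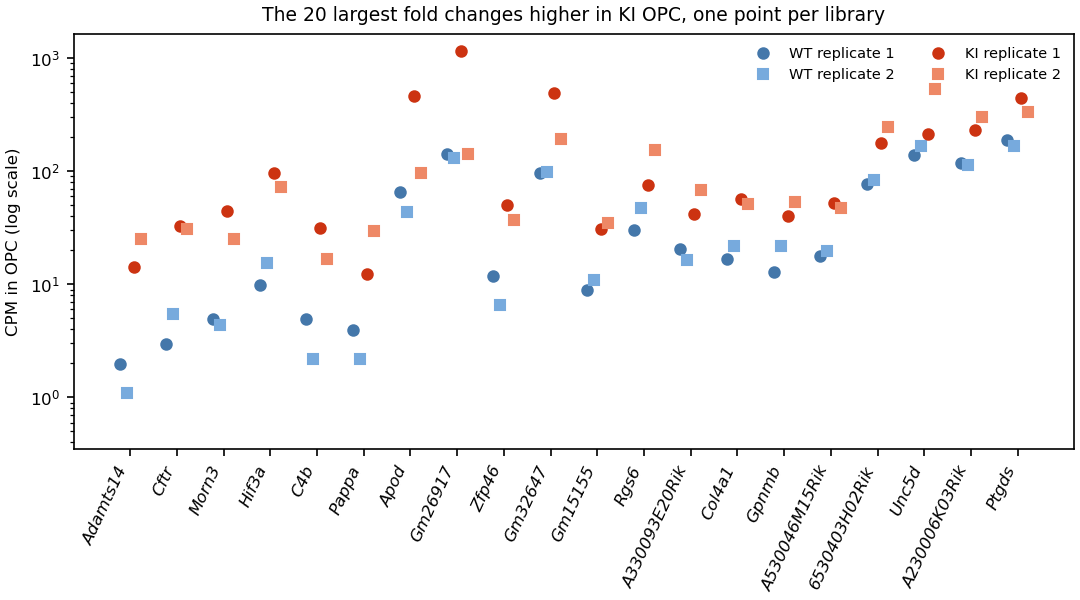
Level in CPM (log axis) in OPC of the 20 genes with the largest log2 fold changes among those higher in KI, with 1 point per library. Hif3a was at 9.82 and 15.3 CPM in WT and at 96.1 and 73.0 CPM in KI, while Gm26917 was high in KI replicate 1 (1162 CPM) and at 142 CPM in KI replicate 2, within the range of the WT libraries.

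Several genes that were scarce in WT OPC rose in KI OPC. Cftr, a chloride channel, had 2.95 and 5.47 CPM in WT against 32.6 and 30.7 CPM in KI (log2 fold change 3.03, SE 0.45, adjusted p 0.00353), and it was detected in 3 and 5 WT members against 26 and 22 KI members. Morn3 had 4.91 and 4.37 CPM in WT against 44.1 and 25.4 CPM in KI (3.02, SE 0.46, adjusted p 0.00353). Neither gene showed overlap between genotypes, and both also passed in members of up to 4000 UMIs, with log2 fold changes of 3.10 and 2.93. In UMIs per nucleus, OPC held 0.404 and 0.798 times the Cftr of neurons in WT and 2.34 and 1.77 times in KI, and 1.35 and 1.01 times the Morn3 of neurons in WT and 3.61 and 2.62 times in KI. WT OPC therefore did not stand above neurons by more than 1.35 times for either gene, and KI OPC did. Adamts14, a protease that trims procollagen, had 1.96 and 1.09 CPM in WT against 14.1 and 25.4 CPM in KI (3.67, SE 0.66, adjusted p 0.0143), from 2 and 1 UMIs in the WT libraries. Up to 4000 UMIs it was at 3.77 and 0 CPM in WT against 12.2 and 27.3 CPM in KI, too few UMIs for the test there. OPC held 0.256 and 0.121 times the Adamts14 of neurons in WT and 1.54 and 2.98 times in KI. C4b, which encodes complement factor C4 and rises in reactive glia, had 4.91 and 2.19 CPM in WT against 31.8 and 16.9 CPM in KI (2.86, SE 0.54, adjusted p 0.0192). In UMIs per nucleus, C4b was at 0.0169 and 0.00781 in WT OPC and 0.118 and 0.0734 in KI OPC, against 0.0698 and 0.0267 in KI neurons, which should lack it. OPC held 1.68 and 2.02 times the amount of neurons in WT and 1.69 and 2.75 times in KI, so that C4b was higher in the KI nuclei of both cell types. The part of free RNA in the change in OPC was not tested. Of 13 immune and reactive genes tested, C4b was the only one that passed, beside 0.35% of all genes higher. The microglial gene C1qc was higher beside it in members of up to 4000 UMIs, and its part in the result was not tested.

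Of 21 genes of lipid carriers and storage tested, Apod and Ptgds passed, both higher (beside 0.35% of all genes). Their level per nucleus was 0.875 to 1.44 times that of neurons in the same library. Apod, which encodes the carrier apolipoprotein D, had 65.8 and 43.7 CPM in WT OPC against 462 and 97.3 CPM in KI OPC (log2 fold change 2.49, SE 0.45, adjusted p 0.0143). KI replicate 1 set most of this value, and without it the log2 fold change was 0.94. In UMIs per nucleus, Apod was at 0.227 and 0.156 in WT OPC and 1.72 and 0.422 in KI OPC, against 0.259 and 0.165 in WT neurons and 1.65 and 0.394 in KI neurons. Mature oligodendrocytes, the main source of Apod, held 1.23 and 1.01 UMIs per nucleus in WT and 9.29 and 3.13 in KI. OPC held 0.875 to 1.07 times the amount of neurons in each library, so that Apod in OPC did not stand apart from neurons and was not read as expression by OPC. Ptgds, which encodes a prostaglandin D2 synthase that also carries lipids, had 188 and 167 CPM in WT against 445 and 332 CPM in KI (1.27, SE 0.19, adjusted p 0.00353). Per nucleus it was at 0.647, 0.598, 1.66 and 1.44 UMIs in OPC of WT replicates 1 and 2 and KI replicates 1 and 2, and at 0.530, 0.473, 1.77 and 0.999 in neurons in the same order. OPC held 0.937 to 1.44 times the amount of neurons. The part of free RNA in the values of Apod and Ptgds was not tested. The other 19 genes of the list of lipid carriers and storage did not pass, and Apoe had 308 and 341 CPM in WT against 228 and 284 CPM in KI.

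Of 10 abundant nuclear noncoding RNAs tested, Malat1 and Gm26917 passed, both higher (beside 0.35% of all genes), and Gm26917 rested on 1 library. Malat1 took 8.04% and 7.63% of the OPC UMIs in WT and 12.8% and 11.2% in KI, which differed by 0.75 on the log2 scale (SE 0.13, adjusted p 0.0113). The same shares in neurons were 8.65% and 8.67% in WT and 13.3% and 12.0% in KI. Of all genes tested, 31.6% had both KI libraries below both WT libraries in CPM and 13.1% had them above. CPM values sum to a fixed total, and the part of Malat1 in this split was not tested. Gm26917, annotated as a long noncoding RNA, was at 143 and 131 CPM in WT against 1162 and 142 CPM in KI (2.39, SE 0.52, adjusted p 0.0380). It was the only gene of the 55 whose groups overlapped, it was raised in the neurons, astrocytes and oligodendrocytes of KI replicate 1 as well (650 to 823 CPM), and its log2 fold change without that library was 0.17.

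Of 66 adhesion and axon guidance genes tested, Nrg1 and Unc5d passed, both higher (beside 0.35% of all genes), and in members of up to 4000 UMIs 0 of 65 passed in edgeR (beside 0.987% higher and 0.506% lower). Nrg1, a ligand of the ErbB receptors, had 590 and 743 CPM in WT against 1104 and 1608 CPM in KI (log2 fold change 1.15, SE 0.19, adjusted p 0.00634). In members of up to 4000 UMIs its log2 fold change was 0.40, with an adjusted p of 0.154. Unc5d, a netrin receptor, had 139 and 168 CPM in WT against 214 and 532 CPM in KI (1.40, SE 0.28, adjusted p 0.0290), and the value was 0.63 without KI replicate 2. Up to 4000 UMIs it was 0.78, with an adjusted p of 0.0791. Grin1, the obligate subunit of NMDA receptors, had 177 and 132 CPM in WT against 270 and 253 CPM in KI (0.89, SE 0.19, adjusted p 0.0372). Its log2 fold change was 0.48 in the shallower nuclei, with an adjusted p of 0.404. The syntaxin gene Stx3 went from 1.09 to 0.14. All 4 genes are used by neurons, whose transcripts filled the deep members, and the part of these nuclei in the differences was not tested beyond these values. Gm32647 turned its sign, from 1.96 over all members to -0.67 in members of up to 4000 UMIs: a single nucleus held 360 of its 564 UMIs in KI replicate 1, and another held 93 of 184 in KI replicate 2. By contrast, Usp16, a histone deubiquitinase, and Plce1, a phospholipase, kept their size, with log2 fold changes of 0.98 and 0.96 over all members and 1.35 and 1.13 in the shallower nuclei, where both passed.

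**Figure D3:**
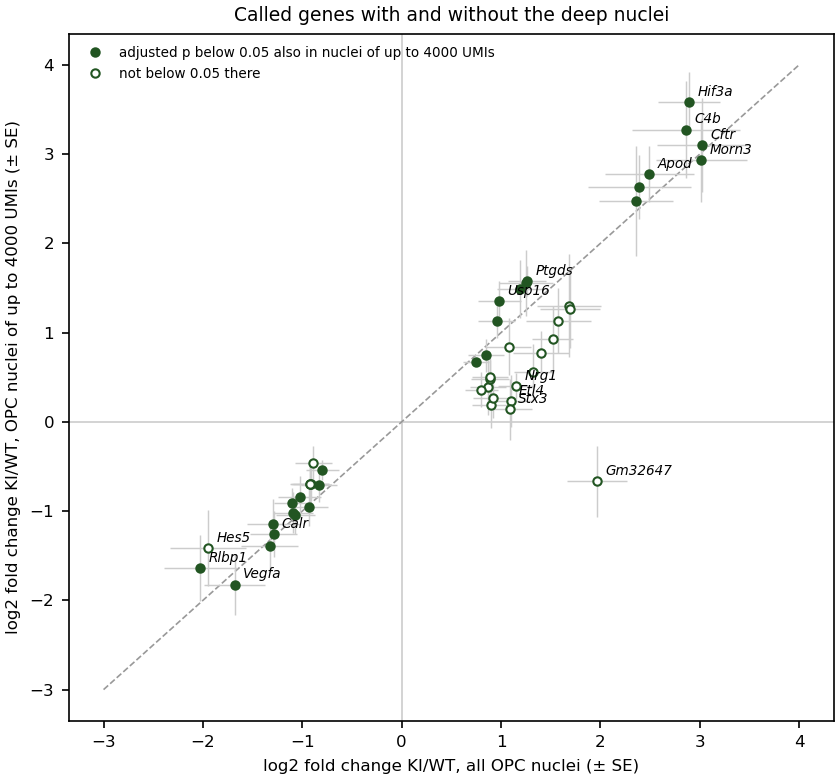
Log2 fold change (KI over WT, ± SE) of the genes that passed in all OPC nuclei (horizontal axis) against OPC nuclei of up to 4000 UMIs (vertical axis), with filled points for genes that also passed there and the dashed line for equal values. Hif3a moved from 2.89 to 3.58, while Nrg1 (1.15 to 0.40) and Gm32647 (1.96 to -0.67) fell off the line. Top2a, without UMIs in KI, and genes not tested in both are not drawn.

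Among the genes that fell, the largest difference was that of Top2a (ENSMUSG00000020914; chromosome 11, 98992943 to 99024189, minus strand, in GRCm38), which encodes the topoisomerase that dividing cells need to separate their chromosomes. WT libraries held 21 and 31 UMIs in 7 and 8 nuclei, and KI libraries held 0 UMIs. Pooled, WT OPC were at 26.9 CPM, and a count of 0 over the KI OPC allowed up to 1.44 CPM (3 counts over the group). Against that limit Top2a was 18.6-fold lower (edgeR adjusted p 0.00183). The limit takes UMIs as independent, though the WT UMIs shared few nuclei, and it leaves out the spread between mice, so the true minimum is smaller. Few nuclei carried it. Members with a UMI of at least 3 of 19 proliferation genes numbered 7 of 295 and 6 of 256 in WT and 1 of 305 and 3 of 218 in KI. In members of up to 4000 UMIs, they numbered 10 of 436 in WT and 0 of 388 in KI. The 4 such KI nuclei therefore all lay among the deep members. Summed over the 19 genes, WT OPC held 201 and 210 CPM and KI OPC 82.0 and 111 CPM. In sums over nuclei, fewer dividing cells and less of the RNA per cell cannot be told apart.

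Of 34 cell cycle genes, 10 were abundant enough to be tested, and these had to be so in at least 1 genotype. Top2a was the only one that passed (0.185% of all genes were lower), 7 had a log2 fold change below 0, and the median was -0.73, against 0.00 for all genes. Diaph3, a formin needed for cell division, had 55 and 58 UMIs in WT and 17 and 34 UMIs in KI (log2 fold change -1.10, adjusted p 0.136). The G1 cyclin Ccnd1 had 51.1 and 51.4 CPM in WT against 29.1 and 25.4 CPM in KI (-0.77, adjusted p 0.226), and Ccnd2 had a log2 fold change of -0.62 (adjusted p 0.337). The Top2a promoter is shown because its CCAAT boxes are well known to drive the gene in dividing cells, together with the cell cycle homology region TTTGAA. The window covers chr11:99024255-99024439 on the minus strand (RefSeq, GRCm38.p6), and capitals mark both motifs on either strand.
Top2a: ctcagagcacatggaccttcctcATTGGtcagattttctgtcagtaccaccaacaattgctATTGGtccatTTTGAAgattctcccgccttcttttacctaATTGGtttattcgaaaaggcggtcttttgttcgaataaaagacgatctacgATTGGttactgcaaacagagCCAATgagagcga
It held 6 matches in all. CCAAT was present in 25.9% of all windows and TTTGAA in 13% of them. Among genes with a promoter entry, CCAAT was in 7 of the 15 lower in KI and in 10 of the 28 higher in KI. TTTGAA was in 3 of the 15 and in 4 of the 28.

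**Figure D4:**
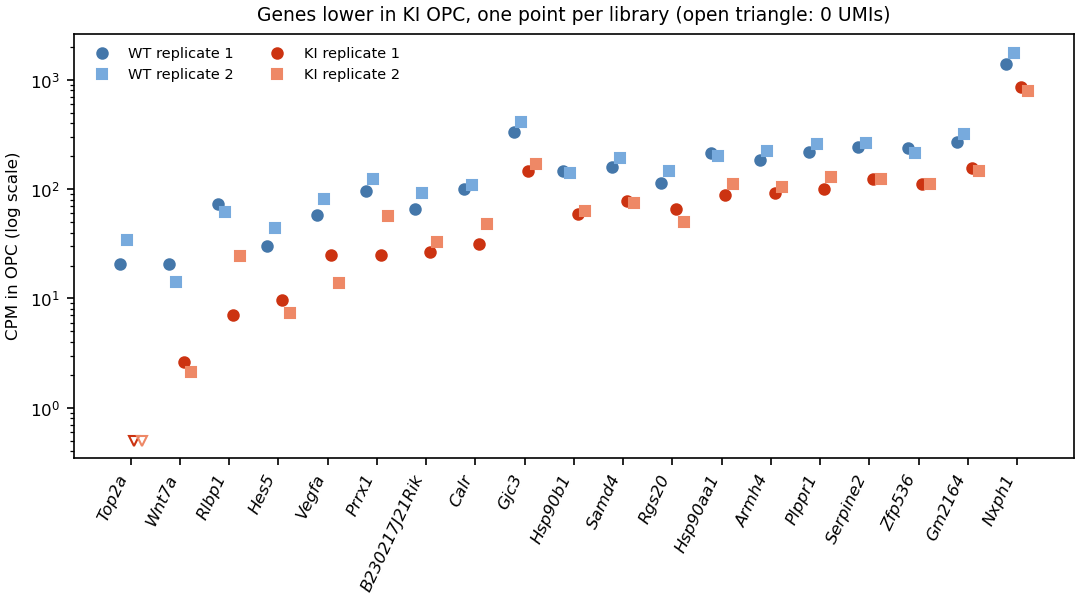
Level in CPM (log axis) in OPC of the 19 genes lower in KI, with 1 point per library and open triangles for libraries at 0 UMIs. In all 19 genes both KI libraries lay below both WT libraries, as in 31.6% of all genes tested, from Top2a (20.6 and 33.9 against 0 CPM) to Nxph1 (1382 and 1751 against 853 and 791 CPM).

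Hes5, Wnt7a, Vegfa and Serpine2, genes of signals that OPC receive or send, were among the 19 genes lower in KI (0.185% of all genes). They were picked from these calls and form no list, and the ligand gene Nrg1 and the receptor gene Unc5d were higher. Hes5, a repressor that Notch switches on and that keeps precursors from differentiating, had 30.4 and 43.7 CPM in WT against 9.70 and 7.41 CPM in KI (log2 fold change -1.95, SE 0.38, adjusted p 0.0253). It was detected in 28 of 295 and 33 of 256 WT members and in 10 of 305 and 6 of 218 KI members. In members of up to 4000 UMIs its log2 fold change was -1.42, with an adjusted p of 0.0736. The other 13 genes of the Notch pathway that were tested did not pass, among them the coactivator Maml2 (1009.5 and 1065 CPM in WT, 845 and 835 CPM in KI). The Hes5 promoter is shown for the core TGGGAA that the Notch effector RBPJ binds. It covers chr4:154960673-154960857 on the plus strand (RefSeq, GRCm38.p6), where it overlaps an exon of Gm20421 in GENCODE M21, and capitals mark the core on either strand.
Hes5: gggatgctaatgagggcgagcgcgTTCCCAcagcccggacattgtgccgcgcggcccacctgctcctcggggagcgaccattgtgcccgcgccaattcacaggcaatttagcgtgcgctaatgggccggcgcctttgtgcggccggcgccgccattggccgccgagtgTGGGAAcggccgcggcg
The core had 2 matches here and was present in 16.7% of all windows.

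Wnt7a, a ligand through which OPC act on vessels and on their own differentiation, had 20.6 and 14.2 CPM in WT against 2.65 and 2.12 CPM in KI (log2 fold change -2.68, SE 0.59, adjusted p 0.0444), and it passed in 5 of 13 alternatives that could test it. The KI values rest on 3 and 2 UMIs. The other 16 Wnt pathway genes tested did not pass. Vegfa, a growth factor of vessels that hypoxia induces, had 57.9 and 80.9 CPM in WT against 24.7 and 13.8 CPM in KI (-1.68, SE 0.31, adjusted p 0.0152). In members of up to 4000 UMIs it stood at 81.1 and 105 CPM in WT against 26.2 and 21.2 CPM in KI (-1.82, adjusted p 0.000890). Its level in KI OPC was thus below that in WT with and without the deep nuclei. Astrocytes also hold Hes5 and Vegfa, and astrocyte markers in OPC summed to less in KI (777 and 925 CPM in WT against 554 and 631 CPM in KI, and 855 and 837 CPM against 726 and 729.7 CPM up to 4000 UMIs). Their part in the result was not tested. Serpine2, a secreted protease inhibitor, had 244 and 263 CPM in WT and 123 CPM in each KI library (-0.91, SE 0.18, adjusted p 0.0253). Of 19 BMP and TGF-beta genes, 0 passed in edgeR and in DESeq2, with 2 at an unadjusted p below 0.05.

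Calr, Hsp90b1 and Hsp90aa1, which encode chaperones of the endoplasmic reticulum and cytosol, were lower in KI OPC. Calr, which encodes the calcium-binding chaperone calreticulin, had 101 and 109 CPM in WT against 31.8 and 47.6 CPM in KI (log2 fold change -1.29, SE 0.24, adjusted p 0.0152). Hsp90b1, which encodes the HSP90 of the reticulum, had 146 and 140 CPM in WT against 59.1 and 63.5 CPM in KI (-1.09, SE 0.20, adjusted p 0.0145). Hsp90aa1, the inducible cytosolic HSP90, had 215 and 201 CPM in WT against 89.1 and 111 CPM in KI (-0.93, SE 0.19, adjusted p 0.0309). In all of these, both KI libraries lay below both WT libraries, as in 31.6% of all genes tested, and each also passed in members of up to 4000 UMIs. A list of 20 chaperones was drawn up after these genes had been seen and supports nothing on its own. Of 16 tested, 3 passed lower (beside 0.185% of all genes) and 14 had a log2 fold change below 0. The median was -0.64, against 0.00 for all genes, and -0.46 in members of up to 4000 UMIs. Hspa8 was at -0.93 (adjusted p 0.0585), Hspa5, the central chaperone of the reticulum, at -0.81 (adjusted p 0.104) and Canx at -0.57 (adjusted p 0.222). The same 16 genes had medians of -0.75 in mature oligodendrocytes, -0.52 in astrocytes and -0.40 in neurons. The promoters of Calr (chr8:84846997-84847181) and Hsp90b1 (chr10:86705510-86705694), both on the minus strand (RefSeq, GRCm38.p6), are shown for the endoplasmic reticulum stress element, which is CCAAT, 9 bases of any kind and CCACG, and capitals mark it on either strand.
Calr: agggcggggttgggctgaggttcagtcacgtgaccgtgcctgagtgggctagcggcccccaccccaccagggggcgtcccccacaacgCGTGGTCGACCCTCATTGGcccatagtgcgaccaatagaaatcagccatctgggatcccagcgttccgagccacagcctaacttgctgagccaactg
Hsp90b1: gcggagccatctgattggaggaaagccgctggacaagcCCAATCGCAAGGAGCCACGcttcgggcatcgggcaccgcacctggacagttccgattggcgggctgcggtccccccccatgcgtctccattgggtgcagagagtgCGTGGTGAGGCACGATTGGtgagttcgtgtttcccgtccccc
Calr had 1 match and Hsp90b1 had 2. This element was present in 0.0883% of all windows, in these 2 of the 15 genes lower in KI with a promoter entry, in 0 of the 28 higher in KI, and in 6 of 15 chaperones. It was chosen for genes that had already been called, so these counts support nothing on their own. The element overlaps the shorter CCAAT motif by construction.

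Among genes that mark OPC but were not used to choose them, Nxph1 and Rlbp1 were lower. Of 22 OPC identity genes tested, these 2 passed lower (0.185% of all genes did) and 0 higher (0.35%), with a median log2 fold change of -0.21, or -0.04 in members of up to 4000 UMIs. There, 3 passed lower (Lhfpl3, Nxph1 and Rlbp1, beside 0.506% of all genes) and 1 higher (beside 0.987%). The latter was the sialidase gene Neu4, with 202 and 230 CPM in WT against 342 and 318 CPM in KI (0.72, adjusted p 0.0275). Rlbp1, a retinoid-binding protein, had 73.7 and 61.2 CPM in WT against 7.06 and 24.3 CPM in KI (-2.03, SE 0.36, adjusted p 0.0143). It was detected in 60 and 47 WT members and in 7 and 19 KI members, and without KI replicate 1 its log2 fold change was -1.35. Nxph1, a secreted neurexin ligand, had 1382 and 1751 CPM in WT against 853 and 791 CPM in KI (-0.80, SE 0.17, adjusted p 0.0309). Tnr, an extracellular matrix protein of OPC, was at 2461 and 2580 CPM in WT against 2353 and 2267 CPM in KI. Lhfpl3 had 3311 and 4106 CPM in WT against 2558 and 1796 CPM in KI (-0.64, adjusted p 0.120), and it passed in members of up to 4000 UMIs at -0.41 (adjusted p 0.00574). Gjc3, a connexin of the oligodendrocyte lineage, had 330 and 413 CPM in WT against 146 and 170 CPM in KI (-1.10, SE 0.19, adjusted p 0.0102). Prrx1, a transcription factor linked to quiescence of OPC, had 96.2 and 125 CPM in WT against 24.7 and 57.1 CPM in KI (-1.33, SE 0.28, adjusted p 0.0366), and the value was -0.82 without KI replicate 1. Zfp536, the one of 22 differentiation genes that passed, had 238 and 215 CPM in WT against 111 and 112 CPM in KI (-0.89, SE 0.18, adjusted p 0.0309), against -0.47 (adjusted p 0.290) in the shallower nuclei, where Neu4 was the one differentiation gene that passed.

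Genes by which OPC sense growth factors and synapses are given next, beside 0.35% of all genes higher and 0.185% lower, so that counts of 0 or 1 in a list of this size say nothing about the list. Of 27 growth factor receptors and feedback genes, 0 passed, and Fgfr2 had 531 and 519 CPM in WT against 541 and 533 CPM in KI. Erbb4, a receptor of Nrg1, had 2000.4 and 2255 CPM in WT against 2919.5 and 2274 CPM in KI (log2 fold change 0.42, adjusted p 0.273), and it passed in members of up to 4000 UMIs at 0.68 (adjusted p 1.66e-06). Of 37 glutamate and GABA receptor genes, Grin1 alone passed, and Gria2, the subunit that limits calcium entry through AMPA receptors, had a log2 fold change of 0.37 (adjusted p 0.311) over all members and passed in members of up to 4000 UMIs at 0.39 (adjusted p 0.0339). Of 40 ion channel genes and 23 genes of the extracellular matrix, 0 passed. Up to 4000 UMIs, where 0.987% of all genes were higher, 2 of 37 ion channel genes passed, both higher: Kcnip1, a potassium channel partner, at 1.02 (adjusted p 0.00017) and the potassium channel Kcnma1 at 0.69 (adjusted p 0.00211). Myelin genes (13), sterol and fatty acid synthesis (25) and immediate early genes (11) likewise had 0 calls, with medians of -0.06, 0.03 and -0.35. At an unadjusted p below 0.05 there were 5 growth factor genes, 9 ion channels, 6 matrix genes, 2 myelin genes, 4 genes of sterol and fatty acid synthesis and 4 immediate early genes, and DESeq2 called 0 in each list, so that a count of 0 does not show equal levels.

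Cyfip2, the edited gene, had 144 and 168 CPM in WT OPC against 162 and 147 CPM in KI OPC, which differed by 0.12 on the log2 scale (SE 0.19, adjusted p 0.866). The counts do not tell the alleles apart. Of 22 genes of the WAVE complex and Arp2/3, 0 passed in edgeR and in DESeq2 (4 at an unadjusted p below 0.05), with a median of -0.07, and Nckap1, the subunit that binds Cyfip2, had 283 and 265 CPM in WT against 250 and 224 CPM in KI.

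The difference between genotypes was set against that in mature oligodendrocytes (964 to 1524 nuclei per library) and astrocytes (127 to 399 nuclei), chosen by their own marker rules, with the library as a block. The genotype effect differed between OPC and mature oligodendrocytes in 23 of 13756 genes (0.167%), 6 higher and 17 lower in OPC. Between OPC and astrocytes it differed in 49 of 11743 genes (0.417%), 19 higher and 30 lower. These classes share their libraries, so that free RNA enters both sides. Within mature oligodendrocytes 0 of 14932 genes passed in the same edgeR test (1501 at an unadjusted p below 0.05), and within astrocytes 1 of 10387 (1117 at an unadjusted p below 0.05). Within neurons 355 of 15536 passed, 190 higher and 165 lower, among them 11 of the 36 genes higher and 3 of the 19 lower in KI OPC. The genes higher in KI OPC had a median log2 fold change of 1.36 there. Their medians were 0.82 in mature oligodendrocytes (35 of 35 tested above 0), 0.62 in astrocytes (30 of 33) and 0.67 in neurons (34 of 36). The classes share libraries, and a gene passing in one class and not in another is not shown to differ between them. The genes lower in KI OPC had a median of -1.09 there. In the same order of classes, their medians were -0.46 (15 of 17 tested below 0), -0.66 (14 of 16) and -0.30 (11 of 16). Over all genes tested these medians were 0.01, 0.01 and 0.00.

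Hif3a was among the genes whose genotype effect differed between classes. It stood at 141 and 166 CPM in WT astrocytes and at 178 and 207 CPM in KI astrocytes, so that WT OPC (9.82 and 15.3 CPM) lay far below WT astrocytes. The effect in OPC exceeded that in astrocytes by 2.49 on the log2 scale (SE 0.34, adjusted p 2.51e-05). In mature oligodendrocytes Hif3a had 38.4 and 59.3 CPM in WT against 194 and 92.0 CPM in KI, and the effect in OPC was higher by 1.29 (SE 0.34), which did not pass (adjusted p 0.171). Hes5 in astrocytes had 89.7 and 87.3 CPM in WT, 37.7 CPM in KI replicate 1 and 194 CPM in KI replicate 2, so that the KI libraries lay on opposite sides of WT. The effect in OPC was lower by a difference of -2.27 (SE 0.47, adjusted p 0.0167), which sets OPC against this uneven mean. Serpine2 differed in the same way, with 221 and 220 CPM in WT astrocytes against 226 and 205 CPM in KI astrocytes (difference -0.94, adjusted p 0.0427). For Vegfa, which had 105 and 110 CPM in WT astrocytes against 35.6 and 50.9 CPM in KI astrocytes, the difference of -0.46 did not pass (adjusted p 0.826). For Calr it was -0.15 against oligodendrocytes (adjusted p 0.989) and -0.27 against astrocytes (adjusted p 0.880).

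Lhfpl3 and Pcdh15 were both high in OPC. The genotype effect of Lhfpl3 was lower in OPC than in mature oligodendrocytes and astrocytes, and that of Pcdh15 was lower than in astrocytes. Lhfpl3 in mature oligodendrocytes had 63.2 and 60.5 CPM in WT against 150 and 122 CPM in KI, and in astrocytes 38.5 and 29.8 CPM in WT against 79.6 and 78.8 CPM in KI. The effect in OPC was thus lower by 1.86 against oligodendrocytes (SE 0.25) and by 1.95 against astrocytes (SE 0.27). Pcdh15 had 93.4 and 193 CPM in WT astrocytes against 1109 and 498 CPM in KI astrocytes, against 2025 to 2713 CPM in OPC of all libraries, and its effect in OPC was lower by 2.63 (SE 0.26).

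**Figure D5:**
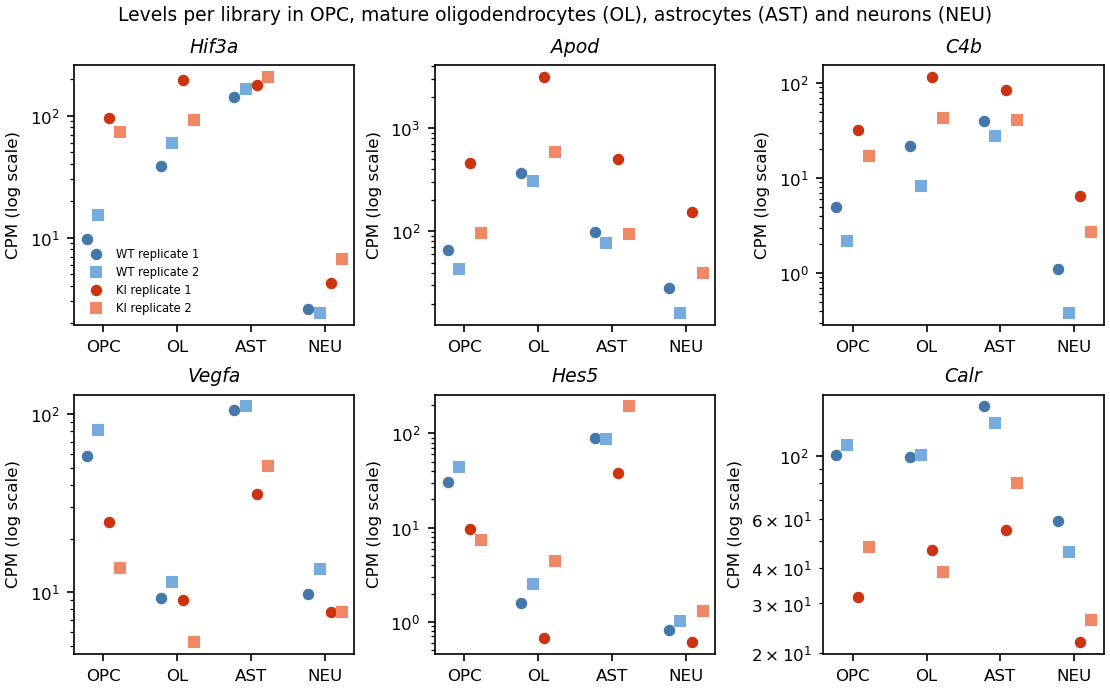
Level in CPM (log axes) of 6 genes in OPC, mature oligodendrocytes (OL), astrocytes (AST) and neurons (NEU), with 1 point per library. Hif3a in OPC was at 9.82 and 15.3 CPM in WT against 96.1 and 73.0 CPM in KI. In OL, AST and NEU both KI libraries also lay above both WT libraries for it, and its genotype effect in OPC did not pass as different from that in OL. Apod was highest in OL, and Calr was lower in both KI libraries in every class.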

How the data were processed

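Nuclei of 2 WT and 2 KI hippocampi, 1 library per mouse, were profiled with droplet libraries of transcript 3' ends. The deposited values are raw UMI counts per gene and nucleus barcode, made by the authors with Cell Ranger 7.0.1 per the file headers and not normalized. The submitters' processing notes name mm10. Groups and replicate numbers came from the titles, and 0 columns of samples were left unused.

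The filters of 500 genes and 5% mitochondrial UMIs took out 345 of 55640 barcodes. Members were found by the rule given above. The rule, the gene lists and the tests were chosen with earlier results of these data known. Counts were summed per library over the nuclei of a class, so that nuclei were not used as replicates, and tested with edgeR 4.0.16 in R 4.3.3 (filterByExpr, TMM factors, quasi-likelihood test, Benjamini-Hochberg adjustment over all genes tested, threshold 0.05). SE is the log2 fold change divided by the root of the test's F value. A term for class and genotype, in a fit that held each library as a block, tested whether effects differed between classes. Both edgeR fits were first tested on simulated counts with known changes. CPM is the raw count over the class's sum in a library. Intervals of shares are exact (Clopper-Pearson, 95%), and a count of 0 has the limit given by 3 counts.

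Named genes were those that passed without overlap of the groups (the 15 largest changes per direction), the 10 with the smallest p per direction among genes of at least 50 CPM, list members that passed or had the 3 highest levels, the genes of the rule, Hif3a and Cyfip2. Fkbp5, Neu4, C1qc, Kcnip1, Hif1a, Nr3c1, Usp16, Stx3, Syt1, Rbfox3 and the chaperones Hspa5, Hspa8 and Canx lay outside this rule and were chosen after their values were seen. A result on 1 further gene is not reported here. Doublets were kept and scored with Scrublet in scanpy 1.11.5 (expected rate 0.08). Alternatives were DESeq2 1.42.0, library totals, no low-count filter, nuclei of at least 1000 genes, a doublet score of at most 0.25, at least 4 genes of the rule, at most 1 UMI of Gad1, Gad2 and Slc17a7, sums thinned to equal depth, a replicate block and leaving out each library. The limit of 4000 UMIs and the chaperone list were added after the data were seen. The batch label was the same in each library. GENCODE M21 gave gene positions on GRCm38, and RefSeq the promoter sequences.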

Additional observations from a re-analysis of the deposited data

Results flagged for a closer look

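The genotype effect of 2 genes chosen to be named differed between OPC and mature oligodendrocytes in edgeR's class-by-genotype test. The log2 fold change of Lhfpl3, a marker of OPC, differed by -1.86 (adjusted p 0.000277), and that of the noncoding RNA Gm32647 by 1.13 (adjusted p 0.0407), of whose UMIs 1 nucleus held 360 of 564 in KI replicate 1 and another 93 of 184 in KI replicate 2.

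Of the genes chosen to be named, 5 had a higher genotype effect (log2 fold change, KI over WT) in OPC than in astrocytes, which says nothing of their level. These were Hif3a with a difference of 2.49 (adjusted p 2.51e-05), the noncoding RNA A530046M15Rik with 2.20 (adjusted p 0.0411), A330093E20Rik with 1.72 (adjusted p 0.0104), the transcription factor Zbtb16 with 1.03 (adjusted p 0.0317) and the potassium channel partner Kcnip4 with 0.82 (adjusted p 0.0196). Of the genes named, the effect in OPC was lower for Pcdh15, a protocadherin of OPC, with -2.63 (adjusted p 4.66e-08), the Notch target Hes5 with -2.27 (adjusted p 0.0167, where astrocytes held 37.7 CPM in KI replicate 1 and 194 CPM in KI replicate 2, on opposite sides of WT), Lhfpl3 with -1.95 (adjusted p 3.88e-05), Serpine2 with -0.94 (adjusted p 0.0427) and the lipid carrier Apoe with -0.83 (adjusted p 0.0401). For Zbtb16, Kcnip4, Pcdh15, Lhfpl3 and Apoe, the effect within OPC alone did not pass over all members, while Zbtb16 and Lhfpl3 passed in members of up to 4000 UMIs. The log2 fold change of A330093E20Rik in OPC was 1.69 over all members and 1.30 in members of up to 4000 UMIs, where it did not pass (adjusted p 0.315), and A530046M15Rik could not be tested there.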

How the results depend on the processing

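The number of genes that differed between KI and WT OPC was 55. It was 12 with DESeq2, 209 without the low-count filter, 2 without nuclei above a doublet score of 0.25, 23 with at least 4 genes of the rule, 24 at equal depth and 121 in nuclei of up to 4000 UMIs, and it was 25 without WT replicate 2, 295 without KI replicate 1 and 720 without KI replicate 2, where the lone library is assumed to vary like the other genotype. Whether samples with the same replicate number shared more than a number was not tested. The correlation of their deviations over the genes was -0.04, and with the replicate number as a block 182 genes passed. Each of the 55 genes that had a value kept its direction (54 had one with at least 4 genes of the rule and with at most 1 neuronal UMI, and 55 otherwise), apart from the limit of 4000 UMIs, where 48 of 49 did. The difference between OPC and mature oligodendrocytes held 23 genes, 12 with nuclei of at least 1000 genes, 11 in OPC of up to 4000 UMIs, and 6, 3, 217 and 348 without WT replicates 1 and 2 and KI replicates 1 and 2. Against astrocytes these numbers were 49, 18 and 23, and 6, 9, 51 and 76. The share of OPC was higher in KI by 0.121 percentage points, and by 0.0566 to 0.352 otherwise. Signs turned for Gm32647 (-0.67) and Apoe (0.02) in nuclei of up to 4000 UMIs, Cyfip2 with library totals (-0.01), and with 1 library left out for Pcdh15 (-0.27 to 0.02, above 0 without WT replicate 2), Mbp (-0.05 to 0.56, below 0 without KI replicate 1), Zbtb16 (-0.13 to 0.90) and Nckap1 (-0.16 to 0.02), the last 2 without KI replicate 2. The causes were not tested. Depth limits Wnt7a and Top2a, with 0 to 3 UMIs per KI library.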
